A study of Mus musculus with 6 samples.

Results

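The 8 genes St14, Cd68, Lyz2, Lgals3, Cd14, Csf3r, Fcer1g and Spi1 are genes of activated phagocytes, grouped here with the membrane protease gene St14. They were picked by symbol from a table of 12968 genes, and 8 of the 8 were present. The choice was made with their difference between the groups known, so that difference is described below without a test. Ribosome-bound RNA was sequenced from the left brain hemisphere (middle section) of 6 mice. In the MCAO group, 3 mice had 1 h of middle cerebral artery occlusion, a model of ischemic stroke, and were killed after 3 days. The 3 control mice had no occlusion, and no sham operation is named in the labels. All samples were RiboTag immunoprecipitates, in which an epitope-tagged ribosomal protein is pulled down with the RNA that its ribosomes carry. The tag is switched on by Cre recombinase. The series title speaks of the astrocyte transcriptome, but the labels name no Cre driver, strain, sex or age.

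Phagocytes engulf debris and dying cells and digest them in lysosomes. In the brain this is chiefly the work of microglia, joined after injury by monocytes, macrophages and neutrophils from the blood. Their genes are switched on by PU.1, the transcription factor that Spi1 encodes. Surface receptors such as CD14 sense microbial and tissue products, Fc receptor gamma chains pass on antibody signals, and lysosomal proteins such as CD68 and lysozyme mark digestion.

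Since Spi1 is among the 8 genes, the 250 bases before the transcription start of the others were searched for the core of the PU.1 motif, GAGGAA, on both strands. RefSeq sequences of build GRCm38.p6 were at hand for Cd68, Lyz2, Lgals3, Csf3r and Fcer1g. The motif was found in 2 of these 5 windows, Cd68 and Csf3r, and in 23.3% of the 32851 windows of the RefSeq table. Both sequences are shown because they hold the motif, which stands in capitals and is read from 5′ to 3′ on the strand of the gene.
Cd68 (chr11:69666171-69666420, minus strand): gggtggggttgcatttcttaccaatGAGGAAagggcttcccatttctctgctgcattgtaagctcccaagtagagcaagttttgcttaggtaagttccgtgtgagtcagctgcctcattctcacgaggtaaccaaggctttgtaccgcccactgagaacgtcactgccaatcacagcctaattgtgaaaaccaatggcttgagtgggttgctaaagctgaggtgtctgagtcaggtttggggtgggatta
Csf3r (chr4:126024409-126024658, plus strand): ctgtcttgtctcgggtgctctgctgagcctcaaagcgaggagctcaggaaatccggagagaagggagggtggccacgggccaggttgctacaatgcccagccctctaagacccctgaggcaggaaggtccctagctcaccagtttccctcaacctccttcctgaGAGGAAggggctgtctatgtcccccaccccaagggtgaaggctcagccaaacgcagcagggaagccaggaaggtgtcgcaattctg
The motif lies 225 to 220 bases before the start in Cd68 and 86 to 81 bases before it in Csf3r. The start used for Csf3r lies 1218 bases inside the gene as annotated, while for the other 4 genes it is the annotated start of the gene. Of the other motifs searched, TGANTCA of AP-1, which reads the same on both strands, was in 1 of the 5 windows, that of Cd68, and in 6.75% of all windows. TTGCNNAA of C/EBP was also in the window of Cd68 alone among the 5, against 9.56% of all windows. The NF-kB motif was in 0 of the 5 and in 0.356% of all. A match is a run of letters and not a measured binding site.

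Values are scaled reads, read counts per gene divided by a scale factor per library, with values under 1 listed as 1. Whole reads recovered from them totalled 4567615, 882263 and 4027185 in MCAO 1, 2 and 3, against 9519548, 1538901 and 1816934 in controls 1, 2 and 3. A count of 0 allows up to 3 reads, which is 1.76, 9.33 and 2.00 scaled reads in MCAO 1, 2 and 3, against 0.863, 5.32 and 4.53 in controls 1, 2 and 3. These limits cover counting error only. The 8 genes rest on few reads in controls, 11 to 83 per gene over the 3 control libraries together, against 74 to 1068 over the 3 MCAO libraries. Of 12 astrocyte markers tested 4 had a positive log2 change, and the median was -0.19. Slc1a3 (-0.69, SE 0.23, limma adjusted p = 0.114) and Slc4a4 (-0.58, SE 0.19, adjusted p = 0.114), both singled out after their values were seen, did not pass the test. The markers called lower numbered 0, but 4 without control 2 and 6 without the shallowest library of each group. Gfap rose by 3.45 in log2 (SE 0.18, limma adjusted p = 1.93e-07). Aldh1l1 (0.30, SE 0.20, adjusted p = 0.430) and the tagged gene Rpl22 (0.35, SE 0.19, adjusted p = 0.330) did not pass the test. The numbering of animals only names them.

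In 8 of the 8 genes every MCAO library lay above every control library. Among all 12549 tested genes 12.4% did so, and nothing is read from the members' count because the genes were chosen on this contrast. Log2 changes ran from 2.24 in Fcer1g to 4.73 in Lgals3, with a median of 2.73, beside a median of -0.01 over all tested genes. Log2 changes and their SE are of log2(scaled reads + 1), a scale on which the change of each of the 8 genes is smaller than with 0.1 added in place of 1. All 8 passed the filter of a mean of at least 10, but 6 of them averaged under 10 in controls and passed through their MCAO values. In bulk precipitates, more cells of a type and more RNA per cell cannot be told apart.

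**Figure D1:**
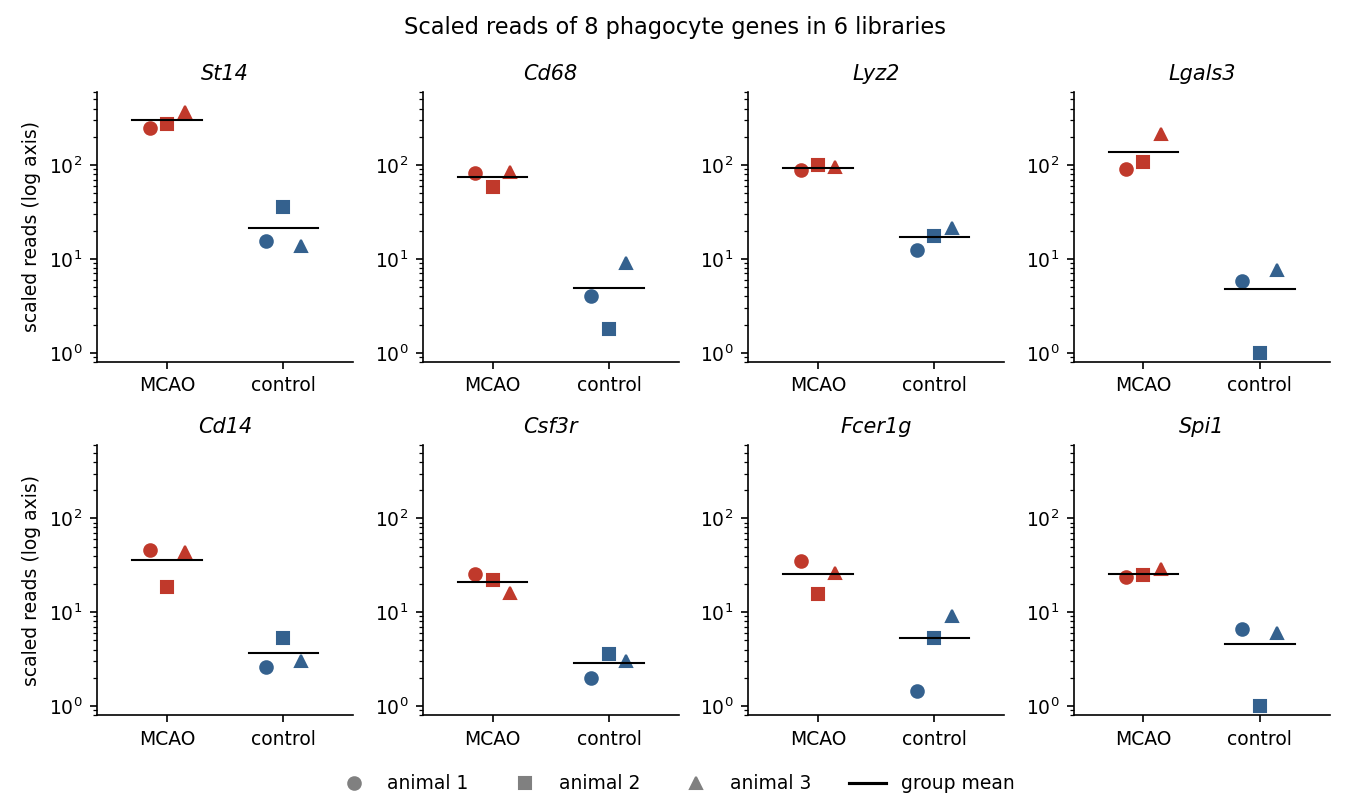
Scaled reads (log axis) of the 8 genes in each library, MCAO left and control right; symbols mark animals 1 to 3 of each group, which are not paired, and bars are group means (n = 3 each). In every panel the MCAO points lie above the control points, with the smallest gap in Fcer1g, where the lowest MCAO library was 1.72 times the highest control.

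St14 encodes matriptase, a serine protease of the cell surface best known from epithelia. The gene lies at 31088590 to 31131811 of chromosome 9 (GRCm38.p6), where it overlaps the gene model Gm16071. It had 249, 277 and 370 scaled reads in MCAO 1, 2 and 3, against 15.5, 35.5 and 13.6 in controls 1, 2 and 3. The groups were far apart, and MCAO 3 was highest while control 2 stood above the other controls. The group means were 299 ± 63.6 after MCAO and 21.5 ± 12.1 in controls (SD, n = 3 each), a 13.9-fold ratio and a log2 change of 3.84 (SE 0.31). St14 made up 38.8% to 44.3% of the summed scaled reads of the 8 genes in the MCAO libraries, against 18.8% to 49.8% in controls.

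Genes that work with matriptase were mostly not analysed here. Of 25 listed inhibitors, substrates and sister proteases, 5 were in the table and 4 were tested. Of these 4 genes 2 rose and 0 fell. The 2 averaged under 10 in controls and so passed the filter through their MCAO values. Of all tested genes 2.30% rose and 0.789% fell, 3.08% in either direction. The same shares of all tested genes stand beside the counts of every list below. All lists were chosen with earlier results of these data known, so nothing is read from a count set beside these shares. Plau, the urokinase gene, whose product matriptase can activate, had 44.7, 40.4 and 73.9 scaled reads in MCAO 1, 2 and 3, against 6.91, 7.10 and 10.6 in controls 1, 2 and 3. It rose by 2.53 (SE 0.39, limma adjusted p = 0.00219). The count of risen genes in this list was 1 without control 2, control 3, MCAO 1, MCAO 2 or MCAO 3. Spint2, a membrane inhibitor of matriptase, had 28.8, 34.2 and 23.3 scaled reads in MCAO libraries and 24.5, 37.3 and 31.7 in controls, a log2 change of -0.11 (SE 0.32, adjusted p = 0.892). Met, the other tested gene without a call, had a log2 change of -0.50 (SE 0.44, adjusted p = 0.562). Spint2 and Met were singled out after their values were seen.

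The lysosomal gene Cd68 and the lysozyme gene Lyz2 were both far above controls after MCAO but differed in spread. Cd68, whose product is a heavily glycosylated protein of macrophage lysosomes, lies at 69664213 to 69666170 of chromosome 11. Its scaled reads were 82.4, 59.1 and 83.9 in MCAO 1, 2 and 3, against 4.03, 1.77 and 9.05 in controls 1, 2 and 3. The control with 1.77 holds a single read, so the ratio of the means, 15.2-fold, rests on 21 control reads in all. The means were 75.1 ± 13.9 after MCAO and 4.95 ± 3.73 in controls, and the log2 change was 3.86 (SE 0.47). Lyz2, which encodes the lysozyme of macrophages and other myeloid cells, lies at 117277541 to 117282272 of chromosome 10. Lyz2 had 87.7, 99.5 and 95.2 scaled reads in MCAO 1, 2 and 3, against 12.4, 17.7 and 21.1 in controls 1, 2 and 3. Among the 8 genes it varied least within groups, with a coefficient of variation of 6.38% after MCAO and 25.8% in controls. Means of 94.1 ± 6.01 and 17.1 ± 4.41 gave a 5.51-fold ratio and a log2 change of 2.42 (SE 0.28). Lyz1 is a close copy beside it on the chromosome and was not analysed here, so reads that fit both genes leave the level of Lyz2 uncertain.

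Of 24 listed lysosomal and scavenger receptor genes 17 were tested, 9 rose and 0 fell, with a median log2 change of 0.85. Msr1, the macrophage scavenger receptor gene, averaged 31.8 ± 17.3 scaled reads after MCAO, lowest in MCAO 2 at 15.6, while all 3 controls were listed at 1. Its MCAO mean was 8.92 times the limit of 3 reads per control library, averaged over the controls (limma adjusted p = 0.0049). That limit takes a listed 1 as 0 reads, though up to 3 reads can be hidden in control 1, so the figure is not a lower bound. Msr1 was not called without MCAO 3 (0.093). Stab1, which encodes the clearance receptor stabilin 1, rose by 2.67 (SE 0.39, adjusted p = 0.00161). Gpnmb, a glycoprotein gene of lipid-laden macrophages, rose by 2.63 (SE 0.62, adjusted p = 0.0353). Gpnmb was not called without MCAO 1 (0.0852), MCAO 2 (0.0751) or MCAO 3 (0.147). The general lysosome membrane genes Lamp1 and Lamp2, relatives of Cd68 that most cells express, had log2 changes of 0.15 (SE 0.18, adjusted p = 0.703) and 0.22 (SE 0.19, adjusted p = 0.552). Lamp1 and Lamp2 were singled out after their values were seen. Of 18 listed lysozyme and granule genes Lcn2 alone was in the table. Lcn2 encodes lipocalin 2, which neutrophils store and reactive astrocytes also make. It had 108, 65.3 and 111 scaled reads in MCAO 1, 2 and 3, while all 3 controls were listed at 1. The MCAO mean of 94.7 ± 25.5 was 26.5 times the same averaged limit of 3 reads per control library (adjusted p = 1.05e-05).

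Lgals3 had the largest change of the 8 genes and, by the coefficient of variation (47.2%), the widest spread after MCAO. Its product, galectin 3, is a lectin that binds beta-galactosides and gathers on damaged lysosomes. The gene is at 47373860 to 47386167 of chromosome 14. Lgals3 had 91.8, 109 and 212 scaled reads in MCAO 1, 2 and 3, against 5.76, 1 and 7.55 in controls 1, 2 and 3. Control 2 held 0 reads, which allows up to 5.32 scaled reads, and MCAO 3 stood well above the other MCAO libraries. Means were 137 ± 64.9 after MCAO and 4.77 ± 3.38 in controls, a 28.8-fold ratio and a log2 change of 4.73 (SE 0.51). The log2 change depends on the floor value in control 2: it was 4.09 without that library, and 5.14 at most with any library left out. Of the 6 tested genes of 10 on the galectin list, Lgals1 rose by 3.35 (SE 0.32, limma adjusted p = 3.52e-05) and 0 fell. Lgals1, the gene of galectin 1, had 240.0, 249 and 438 scaled reads in MCAO 1, 2 and 3, against 34.0, 15.97 and 40.7 in controls 1, 2 and 3. MCAO 3 was highest in Lgals1 as it was in Lgals3. Lgals8, singled out after its value was seen, had a log2 change of -0.04 (SE 0.18, adjusted p = 0.933).

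The receptor genes Cd14 and Csf3r were at a few reads in controls and many-fold higher after MCAO. Cd14 encodes a co-receptor that hands lipopolysaccharide to the Toll-like receptor TLR4. Its scaled reads were 46.5, 18.7 and 43.3 in MCAO 1, 2 and 3, against 2.59, 5.32 and 3.02 in controls 1, 2 and 3. MCAO 2, the shallowest library, was lowest of its group with 6 reads, and the groups stayed apart. The means of 36.1 ± 15.2 and 3.64 ± 1.47 gave a 9.92-fold ratio and a log2 change of 2.94 (SE 0.53). Csf3r encodes the receptor of granulocyte colony-stimulating factor and lies at 126023441 to 126044975 of chromosome 4, where it overlaps the gene model Gm32908. Csf3r had 25.3, 21.8 and 15.99 scaled reads in MCAO 1, 2 and 3, against 2.01, 3.55 and 3.02 in controls 1, 2 and 3. Here MCAO 3 was lowest, while it was highest in 4 of the other genes. Means were 21.0 ± 4.70 and 2.86 ± 0.779, a 7.35-fold ratio and a log2 change of 2.51 (SE 0.57). The 11 control reads behind Csf3r are the fewest of the 8 genes.

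Most of the signalling genes downstream of these receptors did not pass the test. In the lipopolysaccharide and Toll-like receptor list 21 of 32 genes were tested, 2 rose and 0 fell, with a median log2 change of -0.07. The 2 averaged under 10 in controls and so passed the filter through their MCAO values. Ly86, which encodes the secreted protein MD-1, rose by 2.95 (SE 0.54, limma adjusted p = 0.00805). Cd180, whose product pairs with MD-1, had 38.2, 6.22 and 24.6 scaled reads in MCAO 1, 2 and 3, while all 3 controls were listed at 1. Its MCAO mean was 6.45 times the limit of 3 reads per control library, averaged over the controls (adjusted p = 0.0394), and MCAO 2 lay within that library's own limit. Ly86 lost its call without MCAO 1 (0.0642) or MCAO 3 (0.0647). Cd180 lost it without control 1 (0.0824), control 2 (0.0608), control 3 (0.0677), MCAO 1 (0.188) or MCAO 3 (0.181). Of the 20 listed colony-stimulating factor genes 13 were tested, 3 rose and 0 fell, with a median of -0.16. Csf1r, the receptor gene on which microglia depend, had 595, 417 and 502 scaled reads in MCAO 1, 2 and 3, against 171, 241 and 151 in controls 1, 2 and 3. It rose by 1.44 (SE 0.19, adjusted p = 0.000712). Without MCAO 3 it was the only 1 of the 3 still called. Stat3, the transcription factor gene that acts behind Csf3r, rose by 0.87 (SE 0.16, adjusted p = 0.00778). It was not called without MCAO 3 (log2 change 0.78, adjusted p = 0.0647). Socs3, the feedback inhibitor gene of that pathway, rose by 2.64 (SE 0.57, adjusted p = 0.0239). Socs3 was not called without control 3 (0.0536), MCAO 1 (0.0838), MCAO 2 (0.0771) or MCAO 3 (0.0935).

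Fcer1g and Spi1, the adaptor and the transcription factor of the set, together with Lyz2 had the smallest ratios to controls. Fcer1g encodes the gamma chain of Fc receptors, which signals through an ITAM, and lies at 171229572 to 171234349 of chromosome 1. It had 35.3, 15.6 and 26.0 scaled reads in MCAO 1, 2 and 3, against 1.44, 5.32 and 9.05 in controls 1, 2 and 3. MCAO 2, with 5 reads, came within a factor of 1.72 of control 3, the nearest approach of the groups among the 8 genes. The means of 25.6 ± 9.88 and 5.27 ± 3.81 gave a 4.86-fold ratio and a log2 change of 2.24 (SE 0.61). Spi1, at 91082374 to 91115759 of chromosome 2, had 23.5, 24.9 and 28.6 scaled reads in MCAO 1, 2 and 3, against 6.62, 1 and 6.04 in controls 1, 2 and 3. The MCAO libraries lay close together, and control 2 held 0 reads. Means of 25.7 ± 2.65 and 4.55 ± 3.09 gave a 5.64-fold ratio and a log2 change of 2.49 (SE 0.60), which depends on the floor value in control 2 and was 1.86 without it.

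Of 33 listed ITAM and Fc receptor genes 19 were tested, 8 rose and 0 fell, with a median log2 change of 1.17. Of the 8, 7 averaged under 10 in controls. Without MCAO 1 or MCAO 3 the risen genes numbered 2 in each case, and 5 without control 1 or control 3. Tyrobp, which encodes the ITAM adaptor DAP12, had 87.7, 84.0 and 57.9 scaled reads in MCAO 1, 2 and 3, against 4.03, 1.77 and 13.6 in controls 1, 2 and 3. It rose by 3.70 (SE 0.52, limma adjusted p = 0.00118). Trem2, a lipid receptor gene whose product signals through DAP12, rose by 2.68 (SE 0.37, adjusted p = 0.00102). Lilrb4a, an inhibitory receptor gene, rose by 3.57 (SE 0.63, adjusted p = 0.00667) but not without MCAO 1 (0.0647) or MCAO 3 (0.0887). Among 30 listed transcription factor genes 17 were tested, Irf8 alone rose and 0 fell, with a median of 0.20. Irf8, whose product binds DNA together with PU.1, rose by 2.80 (SE 0.60, adjusted p = 0.0223), with control 2 at the floor. It was not called without MCAO 1 (0.0839), MCAO 2 (0.0731) or MCAO 3 (0.0781).

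The NADPH oxidase makes superoxide in phagocytes, and most of its tested subunit genes rose. Of 13 listed genes 6 were tested, 4 rose and 0 fell, with a median log2 change of 2.37. Of the 4, 3 averaged under 10 in controls and so passed the filter through their MCAO values. Cybb, the catalytic subunit gene, averaged 29.8 ± 1.67 scaled reads after MCAO and 2.84 ± 1.15 in controls (SD, n = 3 each). It rose by 3.05 (SE 0.53, limma adjusted p = 0.0061), the GTPase gene Rac2 by 2.91 (SE 0.52, adjusted p = 0.00716) and the organizer gene Ncf1 by 2.23 (SE 0.43, adjusted p = 0.0115). Without MCAO 3 none of the 4 was called (Cybb 0.0656, Rac2 0.0656, Ncf1 0.0932), and Rac2 (0.0576) and Ncf1 (0.0579) were not called without MCAO 1. Rac1, the widely expressed relative of Rac2, had a log2 change of -0.25 (SE 0.14, adjusted p = 0.360) and lay lower in every MCAO library than in every control. It was singled out after its value was seen.

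**Figure D2:**
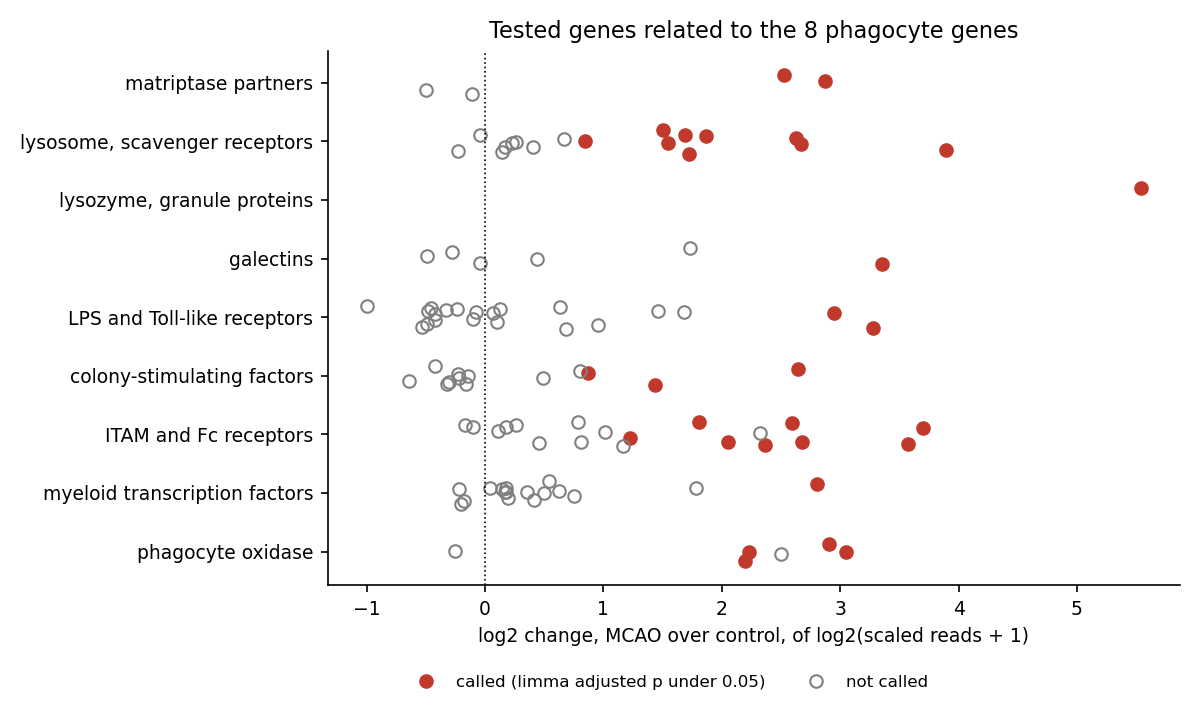
Log2 change, MCAO over control, of each tested gene of the 9 related lists; filled points passed limma at an adjusted p under 0.05, open points did not, and vertical scatter within a row only separates points. All 31 filled genes lie to the right of 0, while most genes of the Toll-like receptor, colony-stimulating factor and transcription factor rows are open.

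Over the 9 related lists, 104 of 205 listed genes were tested, 31 rose (29.8%) and 0 fell, with a median log2 change of 0.45. Over all tested genes 2.30% rose and 0.789% fell. At an unadjusted p under 0.05 43 were higher and 2 lower, and edgeR on recovered reads called 35 higher and 0 lower. Of the 31, 19 averaged under 10 scaled reads in controls and so passed the filter through their MCAO values. Where the mean over the 6 libraries was 50 or more, 10 of 51 related genes rose and 0 fell, against 2.16% of 8376 genes that rose. The 31 became 16 without MCAO 1 and 12 without MCAO 3. Without the genes that are also microglia markers, 28 of 100 rose. Nothing is read from the difference to the shares of all tested genes, because the lists were chosen with earlier results of these data known.

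The summed microglia markers, like the sum of the 8 genes, were higher in every MCAO library than in every control. Within the groups the order differed. The marker sum was highest in MCAO 1 and control 2, and that of the 8 genes in MCAO 3 and control 3. Of 18 listed markers 18 were tested, 10 rose and 0 fell, with a median log2 change of 1.49, while 2.30% of all tested genes rose and 0.789% fell. Their summed level was 2401 to 3263 scaled reads in MCAO libraries, against 782 to 986 in controls. The sum of the 8 genes was 641, 625 and 875 scaled reads in MCAO 1, 2 and 3, against 50.4, 71.2 and 72.4 in controls 1, 2 and 3. Divided by the microglia marker sum of the same library, it came to 0.197, 0.260 and 0.281 in MCAO 1, 2 and 3, against 0.0644, 0.0722 and 0.0795 in controls 1, 2 and 3. The groups did not overlap in this ratio, with St14 or without it (0.120 to 0.162 in MCAO libraries, against 0.0362 to 0.0646 in controls). Nothing is read from this either, because the 8 genes were chosen on this contrast.

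**Figure D3:**
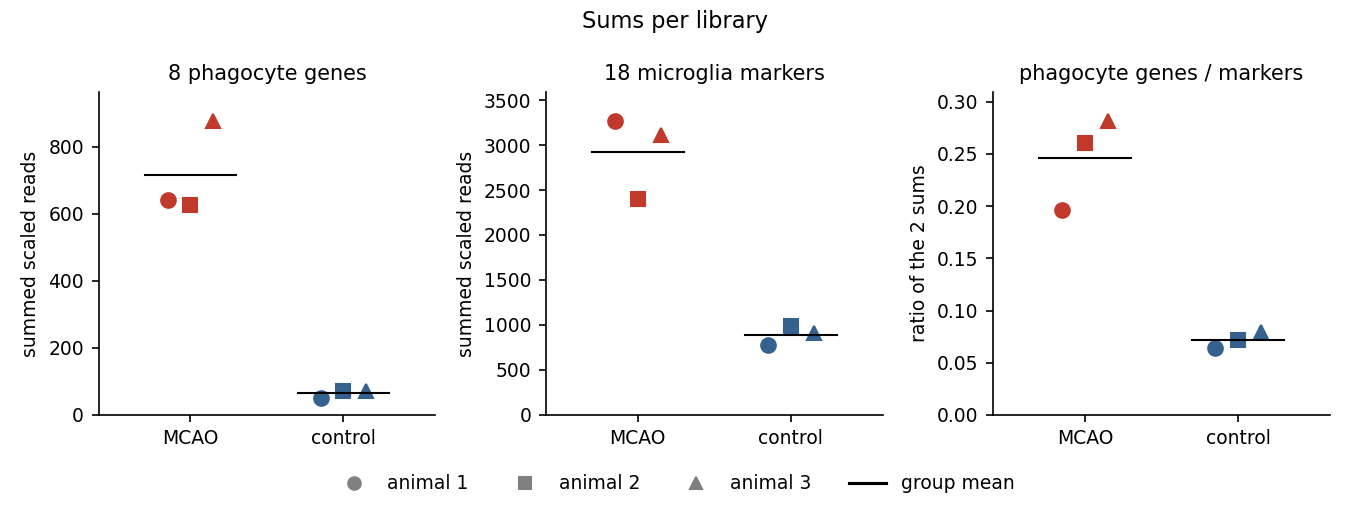
Summed scaled reads of the 8 genes (left), of the 18 microglia markers (middle) and the ratio of the sums (right) in each library, MCAO left of control, with group means as bars (n = 3 each). In each panel the 3 MCAO libraries lie above the 3 controls, and in the ratio MCAO 1 is lowest of its group at 0.197.

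Gene by gene, Lgals3 had the largest ratio of group means after the division, 8.50-fold, while Cd68 came to 4.55-fold and St14 to 4.39-fold. Without control 3 the ratio of Cd68 was 7.37-fold. Cd14 came to 2.99-fold, Csf3r to 2.32-fold and Lyz2 to 1.74-fold, and in these 6 genes every MCAO library lay above every control. Nothing is read from this count, because the genes were chosen on this contrast. The share of all genes that do so after the same division was not computed. Spi1 came to 1.66-fold and Fcer1g to 1.49-fold, and in both the groups overlapped. Leaving out single libraries moved these ratios both ways. Without control 3 Fcer1g came to 2.36-fold and the groups were apart, but without control 1 it came to 1.12-fold with overlap. In Spi1 the groups were apart without control 1 (2.34-fold) or MCAO 1 (1.82-fold), but it came to 1.18-fold with overlap without control 2. With each of the other libraries left out, the groups still overlapped. As a share of the microglia marker sum, Spi1 stood at 0.721%, 1.04% and 0.920% in MCAO 1, 2 and 3, against 0.846%, 0.101% and 0.662% in controls 1, 2 and 3. Spi1 and Lgals3 held 0 reads in control 2, so their shares there are those of the floor value and not measured levels. Without control 2 Lgals3 came to 6.03-fold. The markers themselves changed unequally, from 0.04 in Sall1 to 3.49 in C1qb on the log2 scale, so the ratio depends on which markers are summed.

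**Figure D4:**
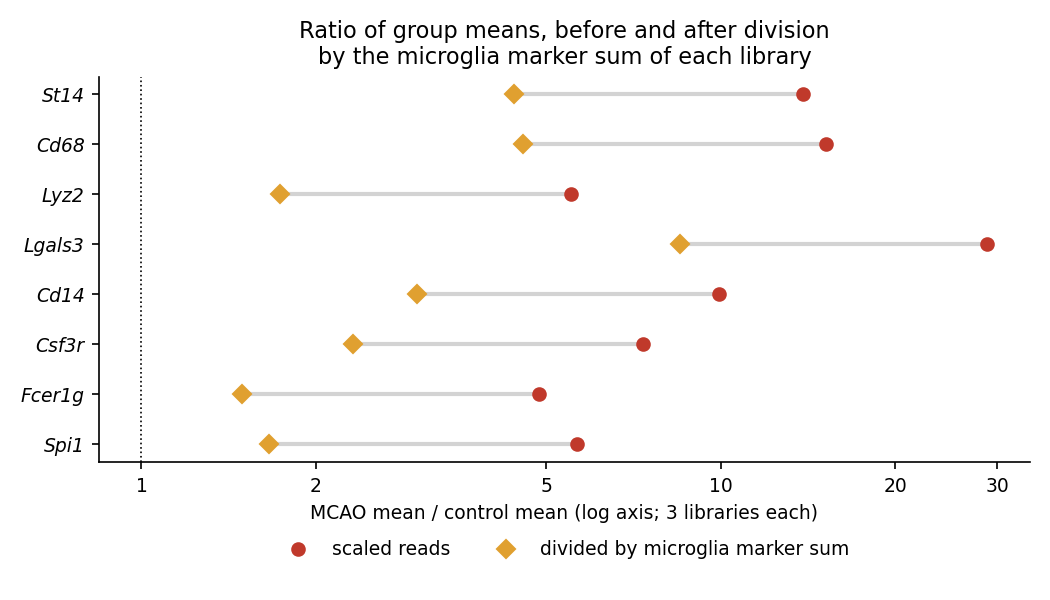
Ratio of the MCAO mean to the control mean (log axis, n = 3 libraries each) for scaled reads (circles) and after division by the microglia marker sum of each library (diamonds); the dotted line marks a ratio of 1. Circles run from 4.86 in Fcer1g to 28.8 in Lgals3, and diamonds from 1.49 to 8.50 in the same genes.

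Markers of other cells that carry these genes were measured in part. Of 14 neutrophil markers 0 and of 14 lymphocyte and mast cell markers 1, Cd4, were in the table, and neither list had a tested gene. Of 10 monocyte markers 2 were tested: Fn1, also made by other cells, rose by 2.84 (SE 0.40, limma adjusted p = 0.00113), and Vcan had a log2 change of -0.01 (SE 0.55, adjusted p = 0.994). Their summed level was 56.0 to 155 scaled reads after MCAO and 18.1 to 33.4 in controls. Of 10 markers of border macrophages 3 were in the table, with a summed level of 59.1 to 164 after MCAO and 18.4 to 31.7 in controls, and the 1 tested, Stab1, rose. Of 14 markers of epithelia, ependyma and choroid plexus, where St14 is known from epithelia, 3 were tested and 0 were called by limma (2 at an unadjusted p under 0.05), at a summed level of 640 to 936 after MCAO and 545 to 632 in controls. These 2, singled out after their values were seen, went opposite ways. Ttr, which held most of the sum, had a log2 change of 0.45 (SE 0.17, limma adjusted p = 0.166), and Kl of -0.68 (SE 0.26, adjusted p = 0.173). The keratin genes listed and Epcam were not analysed here. Astrocyte markers summed to 30241 to 40883 after MCAO and 26678 to 42183 in controls, and oligodendrocyte markers, of which 4 of 10 rose (2 without control 1, MCAO 1 or MCAO 3, and 0 without the intensity trend), to 12380 to 15785 after MCAO and 8361 to 9528 in controls. Of 12 neuron markers 0 were called (0 at an unadjusted p under 0.05), at 22083 to 26466 after MCAO and 24303 to 28080 in controls. Of 7 tested endothelial markers 0 were called (1 at an unadjusted p under 0.05), at 281 to 407 after MCAO and 375 to 451 in controls. The part of these cell types in the levels of the 8 genes was not tested.

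Genes most like each member were found by the mean absolute difference between log2 profiles over the 6 libraries, each centred on its own mean, with the 8 genes themselves left out of the search. The nearest to St14 were C3ar1, the receptor gene for the complement fragment C3a, at a difference of 0.30, Ifi202b, an interferon-inducible gene, at 0.35, and Vim, an intermediate filament gene of astrocytes and other cells, at 0.35. Ifi202b was listed at the floor of 1 in every control and C3ar1 in control 3, so their distances depend on that floor. Vim had 726, 806 and 1594 scaled reads in MCAO 1, 2 and 3, against 66.5, 67.4 and 55.8 in controls 1, 2 and 3, with MCAO 3 highest as in St14. Hspb1, a small heat shock protein gene, was nearest to Cd68 (0.27), Mki67, a marker of dividing cells, to Lyz2 (0.17), and Myo1f, a myosin gene of leukocytes, to Lgals3 (0.55, against 0.53 for Cd68). Fn1, the fibronectin gene, was nearest to Cd14 (0.21) and C1qa, a complement gene of microglia, to Csf3r (0.25). Ptpn6, the phosphatase gene SHP-1, was nearest to Fcer1g (0.15), and Cyba, which encodes the oxidase subunit that pairs with that of Cybb, to Spi1 (0.23). Hspb1, Lgals3 and Spi1 were at the floor in control 2, so distances to them depend on it as well. Among the 8 genes, compared in the same way, Lyz2 and Csf3r were closest to each other (0.20), and Lgals3 and Fcer1g farthest apart (1.37).

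The animals did not order the 8 genes in one way. MCAO 3 was highest of its group in 4 genes, MCAO 1 in 3 and MCAO 2 in 1. Above the group mean of log2 values lay 4 of the 8 genes in MCAO 1, 2 in MCAO 2 and 7 in MCAO 3. In controls, 2 of the 8 genes lay above the group mean in control 1, 5 in control 2 and 6 in control 3. Control 1 is the deepest library, with 175 reads of the 8 genes together, against 39 in control 2 and 48 in control 3.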

How the data were processed

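One table of 12968 genes by 6 libraries, 1 per animal, was used. Per the labels, the precipitation was done 2 times for each animal and joined, 2 technical replicates belong to each animal, and polyA RNA was sequenced. The submitters' processing notes name the build mm10 and the tools HISAT2, DESeq2, CASAVA 1.8, R 3.3.1 and Partek 6.6 without saying what each did; the sources used here do not give the counting or strand setting. The values deposited by the authors are a normalised signal, read counts divided by a scale factor per library, with values under 1 listed as 1. Dividing by each column's step gave whole reads, within 0.1 read, for 99.95% of values above 1 in control 1 and 100% in the other libraries. In control 1 up to 3 reads, and in MCAO 1 and MCAO 3 1 read, can be hidden at the floor. The smallest row maximum is 10.6.

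Tests used limma 3.58.1 in R 4.3.3 (intensity trend, two-sided) on log2(scaled reads + 1) for 12549 genes, those averaging 10 or more. Benjamini-Hochberg adjustment covered all of them, and genes under 0.05 were called. Means are given with SD and n = 3 animals, log2 changes with the moderated SE. The precipitates of 1 animal are not separate replicates, and no 2 libraries were identical. The members and lists were chosen with earlier results of these data known. Named genes were the 8 members, the 3 most changed called genes of each related list, the genes nearest in pattern, and Gfap, Aldh1l1 and Rpl22; others are said to be singled out, and one gene under this rule is not reported here. Gene positions are from RefSeq GRCm38.p6, the assembly of mm10. Alternatives were edgeR 4.0.16 on recovered reads (TMM or DESeq2 size factors), other pseudocounts, filters and normalisation, no trend, and libraries left out.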

Additional observations from a re-analysis of the deposited data

How the results depend on the processing

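No paired analysis was possible because the labels give the animals no shared replicate numbers. The median log2 change of the 8 genes, 2.73, was 1.83 with a pseudocount of 10, 3.33 by edgeR with TMM or with DESeq2 size factors, and 1.38 after division by the microglia marker sum, an alternative chosen after seeing the data. It was 2.63 to 2.95 with 1 library left out. All 387 calls numbered 157 without the intensity trend and 148 to 306 with 1 library left out. The 288 higher calls numbered 139 without the trend, 181 at a mean of at least 50 and 120 to 220 with 1 library left out. The 31 related genes numbered 10 at a mean of at least 50 and 12 to 29 with 1 library left out, and the 28 that are not microglia markers 8 and 9 to 26. The cause of these shifts was not tested, except that fewer genes are tested at a mean of at least 50. By edgeR with TMM 35 related genes rose and 0 fell. Of the 20 called genes named from the related lists or as context, 8 kept their call in every setting that gave them a value. The others lost it in at least 1 setting. The genes nearest in pattern were not followed in this way. Without the trend Gpnmb (0.141), Socs3 (0.0654), Stat3 (0.0759) and Irf8 (0.115) were not called, nor Gpnmb with a pseudocount of 0.1 (0.0520). Depth limits the 8 genes most in control 2 and MCAO 2, where 3 reads equal 5.32 and 9.33 scaled reads.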
